A study of Mus musculus with 18 samples.

Results

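To determine how IFN-γ alters the transcriptome of eosinophils in the presence of E. coli and apoptotic cells (ACs), 3 libraries of eosinophils cultured with IFN-γ, E. coli and ACs were compared with 3 libraries of eosinophils cultured with E. coli and ACs. Where both stimuli were used, IFN-γ was given first and E. coli second, per the study. The compared genes were those with a mean normalized read count of at least 10 over these 6 libraries, which was 9936 of the 54446 genes listed. Of these, 9262 were protein coding. Bcs1l (mean 10.013) was among the genes just inside this minimum and Slc25a13 (9.973) among those just outside. The series holds 18 libraries in all. A further 6 of them, with ACs alone or IFN-γ + ACs, entered the same fit, so that the effect of IFN-γ could be set beside its effect in the absence of E. coli.

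All cells were eosinophils of C57BL/6 mice, taken from the peritoneal cavity of Il5Tg animals, whose Il5 transgene raises eosinophil numbers in the whole animal, and all were cultured with ACs. As ACs, wild-type thymocytes that dexamethasone had killed were added, so eosinophils without dead thymocytes have no place in this comparison. The groups are named E. coli + ACs (E. coli and ACs, without IFN-γ), IFN-γ + E. coli + ACs, ACs (ACs alone) and IFN-γ + ACs. Eosinophils were isolated by removing cells that carry Thy1.2 or B220, and were purified again with anti-Siglec-F beads after culture. The RNA was sequenced by CEL-Seq2, in which reads come from transcript 3' ends. Single libraries are named by number, as A1 to A3 (ACs), E1 to E3 (E. coli + ACs), I1 to I3 (IFN-γ + ACs) and IE1 to IE3 (all stimuli). The labels do not say whether the replicates came from separate mice or cultures. The study states 3 biological replicates for its experiments, and a different mouse per lane where it compares ACs with unstimulated eosinophils. The p-values measure only the spread between these libraries.

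Reads counted on genes were 4759815 to 5078760 per library with E. coli + ACs and 3294760 to 3733809 with IFN-γ + E. coli + ACs, so the IFN-γ libraries were shallower. A value of 3 reads, below which a level was not told from 0, stood for 2.453 to 2.639 normalized counts in the former and 3.665 to 4.276 in the latter. Eosinophil identity was checked with 5 markers, whose summed level was 6845 to 7534 without and 6104 to 7333 with IFN-γ. Siglecf, Ccr3 and Il5ra were measured in every library, whereas Epx, which encodes eosinophil peroxidase, had means of 2.23 and 0.46, at or under 3 reads. Macrophage and monocyte markers were also present, at a summed 21204 to 27166 without and 21165 to 30654 with IFN-γ, most of it from Ly6c2, Lyz2 and C1qc. Sums over different marker genes do not give shares of cells. The study reports that eosinophil purity was checked by flow cytometry after the second selection. In RNA from many pooled cells, such as these bead-purified cultures, fewer cells of a type and less RNA per cell cannot be told apart.

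IFN-γ is the defining cytokine of Type 1 immunity. It binds the IFNGR1 and IFNGR2 chains, whose JAK1 and JAK2 kinases start signalling through STAT proteins. The DNA sites read in this response include gamma-activated sites (GAS) and interferon-stimulated response elements (ISRE), the latter also bound by IRF proteins. Early targets such as IRF1 carry the response on to guanylate-binding proteins, antigen presentation, chemokines and antimicrobial enzymes. Bacteria reach part of the same genes through Toll-like receptors, NF-κB and secreted type I interferon. The order of the stimuli was not varied in these libraries.

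To show the DNA in front of the genes described below, the 250 bases before the annotated start of 6 of them are given from RefSeq (GRCm38.p6), each 5′ to 3′ on the strand of its gene. They hold a chemokine, a transcription factor, 3 GTPases and an antiviral gene that respond differently to IFN-γ here. Capitals mark matches to the GAS letters TTCNNNGAA and to an ISRE, taken as GAAA, any 2 bases and GAAA again, searched on both strands. The windows are chr11:53769764-53770013 (plus strand) for Irf1, chr3:142496684-142496933 (plus) for Gbp5, chr3:142530086-142530335 (plus) for Gbp7, chr11:58199306-58199555 (plus) for Igtp, chr5:92348890-92349139 (minus) for Cxcl10 and chr4:156200819-156201068 (minus) for Isg15.
Irf1: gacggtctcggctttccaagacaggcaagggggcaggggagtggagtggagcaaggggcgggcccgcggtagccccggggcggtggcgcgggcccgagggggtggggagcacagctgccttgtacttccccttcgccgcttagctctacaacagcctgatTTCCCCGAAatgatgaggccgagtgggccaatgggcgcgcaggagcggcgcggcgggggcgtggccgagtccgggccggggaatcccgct
Gbp5: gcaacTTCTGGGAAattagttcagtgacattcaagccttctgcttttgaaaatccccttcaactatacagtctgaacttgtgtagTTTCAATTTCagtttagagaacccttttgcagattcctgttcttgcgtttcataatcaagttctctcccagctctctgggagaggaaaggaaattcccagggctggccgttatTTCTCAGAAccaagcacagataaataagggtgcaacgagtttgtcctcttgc
Gbp7: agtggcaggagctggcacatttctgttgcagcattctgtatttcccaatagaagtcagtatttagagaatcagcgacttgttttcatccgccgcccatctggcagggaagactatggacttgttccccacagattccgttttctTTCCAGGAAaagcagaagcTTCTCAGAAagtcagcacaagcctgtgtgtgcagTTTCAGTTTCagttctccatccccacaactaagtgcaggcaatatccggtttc
Igtp: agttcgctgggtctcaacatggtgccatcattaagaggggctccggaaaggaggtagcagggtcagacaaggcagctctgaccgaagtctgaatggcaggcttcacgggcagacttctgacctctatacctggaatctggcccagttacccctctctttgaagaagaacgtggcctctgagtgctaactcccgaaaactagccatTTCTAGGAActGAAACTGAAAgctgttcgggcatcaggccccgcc
Cxcl10: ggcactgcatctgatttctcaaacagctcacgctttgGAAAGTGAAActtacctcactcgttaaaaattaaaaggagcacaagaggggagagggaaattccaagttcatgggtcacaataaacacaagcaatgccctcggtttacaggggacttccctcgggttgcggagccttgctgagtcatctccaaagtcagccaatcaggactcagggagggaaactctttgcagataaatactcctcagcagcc
Isg15: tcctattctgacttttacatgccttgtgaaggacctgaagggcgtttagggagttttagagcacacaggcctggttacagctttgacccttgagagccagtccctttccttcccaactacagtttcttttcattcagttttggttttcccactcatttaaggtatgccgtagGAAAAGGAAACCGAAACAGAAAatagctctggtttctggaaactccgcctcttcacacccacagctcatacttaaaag

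Irf1 has 1 GAS match and no ISRE match in its window. Gbp5 has 2 GAS matches and 1 ISRE match, as does Gbp7, and Igtp has 1 of each, a few bases apart. Cxcl10 has 1 ISRE match, and Isg15 has 3 that overlap each other, which make up its single run of capitals. Among the first windows of 27025 genes, of 300 bases with 50 after the start included, 8.47% held a GAS match, 3.49% an ISRE match and 11.4% either. For the genes tested here, these shares were 6.82%, 3.56% and 9.89%. Of the guanylate-binding proteins tested, 4 of 9 had a window, and all 4 held an ISRE match. Of the immunity-related GTPases 4 of 7 had one, of which 3 held an ISRE match and 2 a GAS match. All 22 glycolysis and low-oxygen genes had a window, with 1 ISRE match, in front of Vegfa, and no GAS match. Of 32 antiviral genes tested, 25 had a window, of which 16 held an ISRE match and 7 a GAS match. Only 4 of those 32 genes rose with IFN-γ, and 5 fell. The first windows of Cxcl9, Cd274, Bnip3 and Egln3 held neither. A match of letters is a description and not a bound site, and no match says only that these letters are not in the window.

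IFN-γ changed a large share of the transcriptome. By limma with Benjamini-Hochberg adjustment (threshold, an adjusted p of 0.05 with 1.5-fold or more), 997 genes were higher (10.0% of those tested) and 956 were lower (9.62%), together 1953 (19.7%). The size was at least 2-fold for 455 of the higher and 491 of the lower genes, at least 4-fold for 96 and 68, and at least 10-fold for 26 and 4. The 3 libraries of one group did not overlap those of the other for 3939 genes (39.6%), 1876 of them among those called. The median log2 fold change was -0.03 over all genes, 0.95 over the higher and -1.01 over the lower genes. With all libraries rescaled to a common upper quartile, the median over all genes was -0.146 on the log2 scale and the split was 761 higher and 1356 lower. Of the genes described below as higher, this scaling ended the call of Il6 (0.65), Jak2 (0.48), Stat5b (0.49), Irf5 (0.53), Slc7a2 (0.51), Mx1 (0.49), Cxcl3 (0.55), Ccl5 (0.52), Irak3 (0.52), Fpr2 (0.50), Axl (0.55), Fosl1 (0.92) and Ly6g (1.35), beside those for which it is given in place. Between groups of 3 libraries, an exact two-sided permutation test of a single gene cannot give a p below 0.10.

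The 15 largest rises included 3 guanylate-binding protein or CXCR3 ligand genes and 3 genes of the low-oxygen list. Cxcl9, which encodes a chemokine for T cells with the receptor CXCR3, had normalized counts of 17.58, 9.81 and 21.99 with E. coli + ACs and 1119, 1054.19 and 1581.14 with IFN-γ. Every IFN-γ library was far above every library without it, by 76.0-fold between the means (log2 fold change 6.21 ± 0.31 SE, limma adjusted p = 3.1e-11). The gene lies on chromosome 5 from 92321347 to 92328079 on the minus strand of GRCm38. The 15 largest rises, in order, were Cxcl9, Gm12185, Serping1, Mgarp, Gbp8, Lair1, Gbp4, Clic5, Gm10800, Ido1, Vegfa, Egln3, Bnip3, Ciart and Wars, with log2 fold changes from 6.21 to 3.50. Calls lost when 1 library was left out were those of Gm10800 (2.32 to 3.91 without E1, E2 or IE2).

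Serping1, the C1 inhibitor that restrains the classical complement and contact systems, went from a mean of 5.153 to 171.7 (log2 fold change 5.0 ± 0.38). Lair1, an inhibitory collagen receptor of leukocytes, went from 21.77, 4.09 and 21.99 to 330.71, 304.16 and 325.61, and its log2 fold change of 4.53 was 3.81 without E2. Mgarp, a mitochondrial protein that responds to low oxygen, had a log2 fold change of 4.99 that rested on counts of 0.84, 0.82 and 5.28 without IFN-γ and was 5.59 without E3. Those 3 genes were low or near the floor in the libraries without IFN-γ. Clic5, of the chloride intracellular channel family, went from a mean of 30.43 to 608.6. Ciart, a repressor in the circadian clock, had 32.65, 1.64 and 6.16 without and 111.19, 150.25 and 75.88 with IFN-γ, and its log2 fold change of 3.67 moved to 4.65 and 2.82 without E1 and E2. Gm12185, a gene model on chromosome 11 near immunity-related GTPase genes, had a log2 fold change of 5.10, or 4.50 without E1. Gm10800 had 4.28, 316.38 and 8.28 in IE1, IE2 and IE3 and was at or under 3 reads in each library without IFN-γ, so its fitted value depends on the pseudocount and is no fold.

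The receptor chains did not pass the threshold, whereas several STATs and feedback inhibitors did. Of 18 genes of the receptor, JAK-STAT and SOCS list, 7 rose and 1 fell, with a median log2 fold change of 0.30. Ifngr1 and Ifngr2, the receptor chains, had means of 315.5 and 681.7 without IFN-γ and 315 and 687.3 with it. Stat2 and Stat3 rose by 1.01 and 1.19 on the log2 scale, and Ptpn2, a phosphatase that dephosphorylates JAKs and STATs, by 0.93. Jak2 (0.60) and Stat5b (0.60) rose just past the threshold. Without 1 library the call ended for Jak2 (0.51 to 0.55 without E2, IE1 or IE3) and Stat5b (0.50 to 0.57 without E1, IE1 or IE3).

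Socs1, the inhibitor of JAK kinases that closes the loop, rose by 1.24 ± 0.22 on the log2 scale, but its IFN-γ libraries were spread, at 7020.5, 12787.08 and 4457.81, above 3337.73, 2916.97 and 3109.53. Socs2, an inhibitor of STAT5 signalling, fell by 1.0, from 2688.93, 2973.38 and 2324.89 to 1241.6, 1335.14 and 1393.5. Its groups did not overlap. Socs3 did not pass the threshold (0.26 ± 0.18, limma adjusted p = 0.32).

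Among the interferon regulatory factors, 5 of 9 rose and 1 fell (median log2 fold change 0.65). Irf1, an early interferon target whose promoter is printed above, had 719.95, 629.5 and 720.43 without and 5614.98, 6393.54 and 4725.47 with IFN-γ. Its 3.01 ± 0.12 on the log2 scale (8.09-fold between means, limma adjusted p = 7e-13) was the largest difference of the list. Batf2, which acts with IRF1 in macrophages, went from a mean of 18.53 to 66.48 (log2 fold change 1.82), and Irf8, a factor of myeloid cells, from 68.82 to 218.9 (1.59). Irf2 rose by 0.87 and Irf5 by 0.65. Irf7 and Irf9, which serve the type I interferon response, had log2 fold changes of 0.05 and 0.02. Batf, which forms complexes with IRF4 and IRF8, fell by 0.73 on the log2 scale. Leaving out 1 library ended the call of Irf5 (0.57 without IE2) and Batf (-0.56 to -0.80 without A1, A2, A3, E1, E3, IE1 or IE3).

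IFN-γ raised the 3 ligands of CXCR3 by very different amounts. Beside the 6.21 of Cxcl9, Cxcl11 had 68.65, 76.85 and 60.7 without and 212.4, 169.79 and 220.75 with IFN-γ (log2 fold change 1.53 ± 0.25). Cxcl10 was at 2707.35, 2166.47 and 2221.97 with E. coli + ACs and at 3556.58, 3486.28 and 4906.21 with IFN-γ. Its groups did not overlap (log2 fold change 0.74 ± 0.17). Cxcl11 is annotated as a polymorphic pseudogene in this build, because some mouse strains carry a broken copy. Its RNA level therefore does not show that a working chemokine was made. The call did not hold without 1 library for Cxcl10 (0.58 without IE3).

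Every guanylate-binding protein tested rose, 9 of 9, with a median log2 fold change of 2.60 against -0.03 over all genes. These large GTPases bind membranes of vacuoles and bacteria and help to open them. Gbp2 (chromosome 3, 142620602 to 142638008, plus strand) rose evenly, from 2020.05, 1749.53 and 1833.17 to 19705.87, 18455.03 and 19437.22 (log2 fold change 3.36 ± 0.10, limma adjusted p = 5.4e-14). Gbp8 and Gbp4, which lie on chromosome 5 with overlapping spans, had the highest log2 fold changes of the family, 4.97 ± 0.19 and 4.50 ± 0.17. Gbp8 went from 21.77, 28.61 and 20.23 to 617.23, 747.58 and 943.71, and Gbp4 from 192.55, 143.89 and 120.51 to 2993.51, 3282.28 and 4032.86. In both, all libraries with IFN-γ stood more than 10-fold above all those without. Gbp7 rose by 2.61, Gbp11 by 2.60, Gbp5 by 1.97, Gbp9 by 1.79 and Gbp3 by 1.55. Gbp6 had the smallest rise, 1.22 at counts of 12.31 to 23.44 and 37.25 to 47.64. Gbp2b and Gbp10 were under the minimum level. Members of this family share sequence, and reads of near-identical copies may have been split or dropped in counting. The absence of 1 library ended the call of Gbp6 (0.96 without E3).

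The immunity-related GTPases rose as a whole too, 7 of 7, with a median of 2.30. These small GTPases act on vacuoles that hold pathogens. Igtp, also called Irgm3 (chromosome 11, 58199556 to 58207591, plus strand), had 701.53, 681.82 and 780.24 without and 5237.22, 5053.51 and 5030.39 with IFN-γ, a log2 fold change of 2.82 ± 0.10 with the IFN-γ libraries close to each other. Iigp1 rose by 2.89 with more spread, to 1717.71, 2202.44 and 3290.58. F830016B08Rik rose by 3.19, Ifi47 by 2.30, Irgm2 by 1.85, Irgm1 by 1.69 and Gm4951 by 0.98. Tgtp1 and Tgtp2 were under the minimum level, with means of 8.11 and 11.4 with IFN-γ. Here too, reads shared between near-identical or overlapping genes may have been split or dropped in counting.

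**Figure D1:**
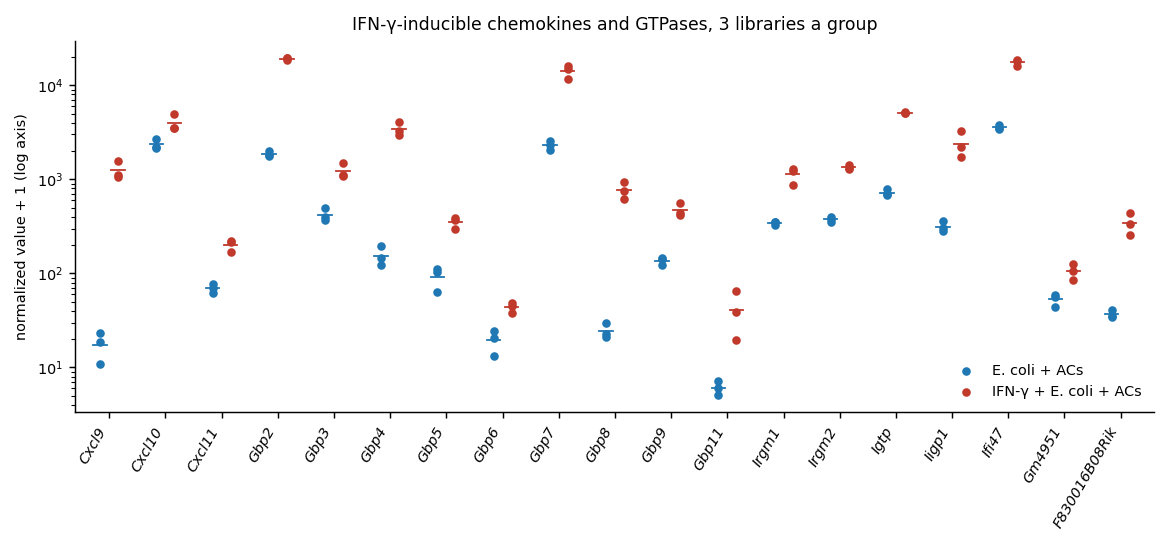
Normalized count plus 1 (log axis) of the CXCR3 ligands, guanylate-binding proteins and immunity-related GTPases in each of the 3 libraries without (blue, E. coli + ACs) and with IFN-γ (red). Points are libraries and short lines are means. The red points lie above the blue points for each gene shown, with the widest gap for Cxcl9 (log2 fold change 6.21) and the narrowest for Cxcl10 (0.74).

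Class I antigen presentation rose broadly. Of 22 genes that encode class I chains, peptide transporters, the immunoproteasome and their regulator, 15 rose and none fell, with a median log2 fold change of 1.06. Nlrc5, the transactivator of class I genes, had 192.55, 197.03 and 182.97 without and 1288.64, 1172.68 and 1203.1 with IFN-γ (2.67 ± 0.14, limma adjusted p = 6.7e-11). Tapbpl rose by 1.96, Tap2 by 1.76, Tap1 by 1.44, Psme2 by 1.52, Erap1 by 1.48, and the immunoproteasome subunits Psmb9, Psmb8 and Psmb10 by 1.42, 1.39 and 1.13. B2m, the light chain of class I molecules, rose from a mean of 31050 to 55540 (0.83). The classical heavy chains H2-K1 (0.53) and H2-D1 (0.18) did not pass the threshold. Reads of the H2 genes may be shared between near-identical copies.

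Class II presentation rose in part, 6 of 10 genes, with a median of 0.80. Without E1, E3, IE1 or IE3 the number was 4, and without E2 it was 5. H2-Ab1, a class II beta chain, had 530.75, 417.76 and 562.09 without and 1419.78, 1415.77 and 1232.07 with IFN-γ (1.44 ± 0.13). Cd74, the invariant chain, rose by 1.06 and Ifi30, a thiol reductase of the antigen-processing compartment, by 1.23. H2-Eb1, the other beta chain, stood at a mean of 280.9 without and 360.3 with IFN-γ and was not called (0.34 ± 0.22). Ciita, the transactivator of class II genes, was under the minimum level, with means of 1.37 and 8.54.

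Among PD-1 ligands and costimulatory molecules, 7 of 11 rose and none fell (median 1.07). Without E2, E3 or IE1 the number that rose was 5, and without IE2 or IE3 it was 6. Cd274, which encodes PD-L1, a ligand that restrains T cells, had 413.55, 460.27 and 438.94 without and 2266.52, 2744.8 and 2937.38 with IFN-γ. The change was 6.06-fold between means (log2 fold change 2.59 ± 0.13, limma adjusted p = 3.4e-11). The gene is on chromosome 19 from 29367455 to 29388095, plus strand. Icam1 (1.41), Tnfsf10 (1.29), Cd86 (1.12) and Cd80 (1.07) also rose. Cd40 did not follow them, with means of 352.3 and 363.7 (0.05 ± 0.18).

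The enzymes that make nitric oxide, itaconate and kynurenine rose strongly, and 7 of 13 in their list passed the threshold upward with none downward (median 0.81). Nos2, the inducible nitric oxide synthase (chromosome 11, 78920787 to 78960254, plus strand), had 670.56, 564.92 and 679.96 without and 4508.8, 5898.82 and 5898.22 with IFN-γ, 8.51-fold between means (3.08 ± 0.17). Acod1, which makes itaconate, went from 378.39, 298.4 and 321.07 to 1404.1, 1040.75 and 1517.67 (1.98 ± 0.16). In neither gene did the groups come close to each other.

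Ido1 and Ido2, which break down tryptophan, were near the floor without IFN-γ, at means of 5.833 and 1.383, and at 101.9 and 21.44 with it, and Ido1 had a log2 fold change of 4.07 ± 0.46. Ido2 without IFN-γ was under 3 reads, so no fold is given for it. Wars, the tryptophanyl-tRNA synthetase induced by interferon, rose from a mean of 79.59 to 924.9 (3.50 ± 0.17). Arg1, the arginase also used in Type 2 activation, rose as well, from 5250.62, 3793.36 and 4013.81 to 8642.7, 8709.58 and 12204.83 (1.17 ± 0.15). The arginine transporter gene Slc7a2 had a log2 fold change of 0.63. Gch1, which makes the cofactor of NOS2, had -0.39 ± 0.12 and did not pass the fold threshold. With 1 library left out, the threshold was missed by Slc7a2 (0.47 to 0.52 without E2 or IE3).

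All 22 genes of glycolysis and the response to low oxygen rose, with a median log2 fold change of 1.70 against -0.03 over all genes. HIF-1, a dimer with the Hif1a product, is the factor that switches on most of them when oxygen is low or when myeloid cells are activated. Vegfa, Egln3 and Bnip3, which encode an angiogenic factor, a HIF prolyl hydroxylase and a mitophagy protein, moved furthest. Bnip3 (chromosome 7, 138890836 to 138909519, minus strand) had 359.98, 362.99 and 425.75 without and 5820.25, 4738.35 and 4648.21 with IFN-γ (3.72 ± 0.12, limma adjusted p = 5.4e-14). Vegfa went from 94.6, 89.11 and 124.91 to 1794.68, 1595.33 and 1768.78 (4.06 ± 0.24), and Egln3 from a mean of 312.5 to 5112 (4.02 ± 0.20). In these 3 genes every IFN-γ library was more than 10-fold above every other. Loss of 1 library ended the call of Hif1a (0.53 to 0.58 without E1, IE1 or IE3).

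Along the glycolytic pathway itself, the steps from glucose uptake to lactate export rose together. Slc2a1, the glucose transporter GLUT1, rose by 2.06, and the hexokinases Hk1, Hk2 and Hk3 by 1.68, 1.73 and 1.81. Pfkp and Pfkl, the phosphofructokinases, rose by 1.91 and 1.76. Pgk1 had 2121.34, 1910.58 and 2155.12 without and 10833.67, 9821.18 and 9704.81 with IFN-γ (2.29 ± 0.11), and Tpi1 rose by 2.22, Pgam1 by 1.72, Ldha by 1.61 and the lactate exporter Slc16a3 by 1.31. Library IE3 was the lowest of its group for Gapdh (2342.73 against 3610.75 and 4410.98), Tpi1 and Eno1. Hif1a itself rose by 0.61, and by 0.49 with no call under the upper-quartile scaling. Aldoa had 0.73. Calls lost when 1 library was left out were those of Aldoa (0.56 without IE1).

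**Figure D2:**
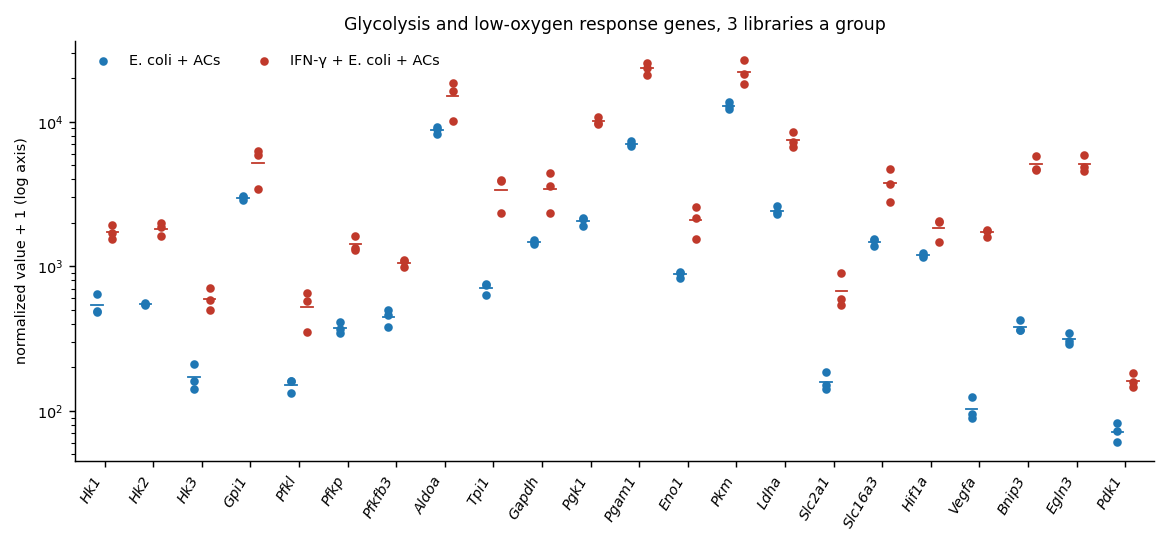
Normalized count plus 1 (log axis) of the 22 glycolysis and low-oxygen genes in each of the 3 libraries without (blue, E. coli + ACs) and with IFN-γ (red). Points are libraries and short lines are means. The mean with IFN-γ is the higher one for every gene, from a log2 fold change of 0.61 for Hif1a to 4.06 for Vegfa.

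Antiviral interferon-stimulated genes, many of which answer to type I interferon, did not move as a block. Of 32 tested, 4 rose, 5 fell and 23 did not pass, with a median log2 fold change of 0.34. Ifit2, an RNA-binding protein of the IFIT family, rose from a mean of 396.8 to 1125 (1.49 ± 0.16). Zbp1, a sensor of nucleic acids, rose by 0.91, Oasl2 by 0.89 and Mx1 by 0.61. Ifit3 and its near copy Ifit3b fell, Ifit3 from 2735.81, 2295.64 and 2290.59 to 1385.57, 1391.33 and 1400.4 (-0.80 ± 0.12), and Ifit3b by 1.76. Ifitm2 fell by 0.77, Oas1g by 1.47 and Oas1a by 0.60. Isg15 had means of 2112 and 2196 (0.06 ± 0.15), Rsad2 6867 and 9455 (0.46) and Irf7, as above, hardly any difference. Without 1 library the call ended for Mx1 (0.50 without IE1) and Oas1a (-0.52 to -0.66 without E1, E2, E3, IE1, IE2 or IE3).

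Of the interferon-linked PARP genes, which attach ADP-ribose to proteins, 6 of 7 rose (list median 0.94). Parp10 was at 1.75, Dtx3l, the partner of PARP9, at 1.36, and Parp14 at 1.32. At a share near that called over all genes (19.7%), 4 of 21 genes of the Ifi200 family and the inflammasome rose and none fell. These were Casp1, the protease that activates IL-1β and IL-18, from 669.72, 663.02 and 587.6 to 1753.34, 1765.13 and 2403.44 (1.61 ± 0.14), Naip5 (0.89), Casp4 (0.77) and Mlkl (0.77). No Ifi200 gene passed the threshold. Of 7 Schlafen genes, Slfn2 was the only one called. It fell by 0.91, from a mean of 6646 to 3603.62, 6658.62 and 1844.66, which straddle that level. Leaving out 1 library ended the call of Slfn2 (-0.44 to -0.85 without E3 or IE3).

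Cytokine transcripts moved in both directions. Of 16 inflammatory cytokines and their antagonists, 4 rose and 2 fell (median 0.15). Il10, the anti-inflammatory cytokine (chromosome 1, 131019845 to 131024974, plus strand), had 272.91, 209.29 and 343.06 with E. coli + ACs and 72.7, 64.74 and 99.34 where IFN-γ had been given too. It fell by 1.78 ± 0.28 on the log2 scale (limma adjusted p = 0.00011), with every IFN-γ library below every other. Il19, another member of the IL-10 family, fell from 222.68, 124.27 and 224.31 to 37.06, 32.98 and 19.32 (-2.64 ± 0.54). Il18bp, which neutralizes IL-18, rose from a mean of 178 to 1007 (2.49 ± 0.14), and Il15, a growth factor of lymphocytes, by 1.24. Il27 (1.10) and Il6 (0.77, from 69.48, 50.69 and 81.81 to 99.78, 86.73 and 166.94) rose too. Tnf, Il1b and Il1a did not pass the threshold, with log2 fold changes of 0.13, 0.46 and 0.58. The call did not hold without 1 library for Il27 (0.87 to 1.03 without E2, E3 or IE1) and Il6 (0.49 to 0.86 without A2, A3, E1, E2, IE1 or IE3).

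In a list of further CXC chemokines, Cxcl2 rose by 0.73, from 1602.31, 1466.66 and 1393.35 to 2161.03, 2393 and 2889.09, whereas Cxcl1 stood at means of 458.5 and 421.6. In that list of 7, Cxcl3 and Cxcl16 also rose, and Pf4, platelet factor 4, fell by 1.54. Of 12 CC chemokines, 2 rose and 2 fell. Ccl4, which draws T cells and monocytes, fell from 1103.37, 845.33 and 862.05 to 302.2, 482.51 and 527.05 (-1.13 ± 0.22), while Ccl5, which draws the same cells, rose by 0.64. Ccl6, made in quantity by eosinophils and macrophages, fell by 1.32 from a mean of 15810 to 6322. Ccl8 rose from near the floor (2.36, or 1.55 without E2). Ccl3 and Ccl2 had 0.32 and 0.19 and were not called. The absence of 1 library ended the call of Cxcl3 (0.49 to 0.69 without E1, E2, E3 or IE3), Cxcl16 (0.57 without E2) and Ccl5 (0.49 to 0.55 without E2 or IE2).

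Toll-like receptor and adaptor genes, and NF-κB genes, were called in shares near that of all genes (19.7%). Of 17 Toll-like receptor and adaptor genes tested, 2 rose (Tlr6, 1.05, and Irak3, 0.64) and 2 fell (Tlr7, -0.77, and Cd14, -0.60). Tlr4, the receptor of lipopolysaccharide, had means of 48.28 and 76.24 and did not pass (0.65 ± 0.25). Of 16 NF-κB genes, Tnfaip3, the ubiquitin-editing inhibitor A20, rose by 0.95, Bcl3 by 0.76 and Birc3 by 0.67, the last with 0.55 and no call under the upper-quartile scaling, and none fell. Among 15 immediate early genes, Atf3, a repressor induced by stress and bacteria, had 193.38, 130.81 and 138.98 without and 1302.89, 941.81 and 1331.41 with IFN-γ (2.95 ± 0.18). Fosl1 (1.04) and Fosl2 (0.83) also rose, while Dusp2 and Ier2 fell by 1.37 and 0.64. With 1 library left out, the threshold was missed by Irak3 (0.53 without IE1), Tlr7 (-0.49 to -0.84 without A1, A2, E1, E2, I1, I2, IE1 or IE3), Cd14 (-0.52 to -0.56 without E1, E3 or IE1) and Fosl1 (0.88 to 1.11 without E1, E2, IE1 or IE3).

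Eosinophil identity genes fell more often than they rose. Of 22 tested, 9 fell and 2 rose, with a median log2 fold change of -0.41. Ear6, an eosinophil-associated ribonuclease, fell from 1776.44, 2284.19 and 1944.89 to 972.18, 823.32 and 1056.85 (-1.07 ± 0.13). Siglece, an inhibitory lectin, fell by 1.32, Xbp1, a factor of secretory cells needed by eosinophils, by 0.94, and Id2 by 0.77. Prg2, which encodes major basic protein, and the factors Gata2, Cebpa and Cebpe fell by 0.70, 0.60, 0.90 and 0.79. Without single libraries, 6 to 9 of the list were called lower. The receptors Ccr3 (0.08), Il5ra (0.25) and Siglecf (-0.46) did not pass the threshold, and Csf2rb2, a beta chain that serves IL-3, rose by 0.64, or 0.53 with no call under the upper-quartile scaling. Itga4, an integrin chain, was the other riser, at 0.77. Loss of 1 library ended the call of Prg2 (-0.63 to -0.73 without E1, E2, E3 or IE2), Gata2 (-0.54 to -0.69 without A1, A2, A3, E1, E2, E3, IE1, IE2 or IE3), Cebpa (-0.63 to -0.85 without E1, E2, IE1 or IE3) and Cebpe (-0.51 without IE3).

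Of the Type 2 activation genes, 2 of 11 rose and 2 fell. Retnla, which encodes RELMα, fell from 27757.47, 26754.67 and 29275.36 to 16702.38, 12371.76 and 20386.45 (-0.79 ± 0.16), and Tgfbi by 1.79. Il13ra1, a receptor chain for IL-13, and Serpinb1a, an inhibitor of neutrophil proteases, rose by 2.37 and 2.39. Chil3 and Alox15, common markers of Type 2 activation, had 0.25 and -0.14.

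Surface receptors changed in both directions. Of 11 C-type lectins, 4 fell, namely the inhibitory Clec12a (131.43, 152.88 and 138.98 to 28.51, 29.32 and 23.45, -2.34 ± 0.17), Clec4a3 (-2.35), Clec4a1 (-1.58) and Clec4a2 (-0.63). Clec4n, dectin-2, and Clec7a, dectin-1, which bind fungal sugars, rose by 1.24 and 0.82. Fpr1, a receptor for bacterial formyl peptides, fell from 3094.12, 2123.14 and 2854.44 to 769.76, 724.37 and 838.86 (-1.77 ± 0.20), while its relative Fpr2 rose by 0.62. Among the 17 chemoattractant receptors, Ccrl2 (1.34) and Ptafr (0.67, or 0.55 with no call under the upper-quartile scaling) also rose, and Ltb4r1 (-0.87) and Cxcr2 (-0.74) fell. Of 7 Fc receptors, Fcgr1 (-1.23) and Fcrls (-1.78) fell and Fcgr4, which binds IgG2 subclasses, rose (0.89). Calls lost when 1 library was left out were those of Clec7a (0.59 to 0.71 without E3 or IE1), Fpr2 (0.48 to 0.50 without E2 or IE3) and Cxcr2 (-0.66 to -0.74 without A1, E1, E2, IE1 or IE3).

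Among 22 genes for the recognition and engulfment of dead cells, 6 rose and 5 fell. Mertk (1.0), a receptor tyrosine kinase for coated dead cells, Tgm2 (1.71), a transglutaminase that takes part in engulfment, Elmo1 (0.95), Itgav (0.71), Axl (0.66) and the cholesterol exporter Abca1 (1.03) rose. Havcr2 (TIM-3, -1.90, to counts of 1.43, 4.89 and 6.90 at or near 3 reads), Cd36 (-1.07), Cd300a (-0.79), Rac2 (-0.67) and Itgb3 (-0.61) fell. In the list of LXR and PPARγ lipid genes 5 of 14 rose and none fell (median 0.51), with Fabp5 at 1.34 and Scd2 at 1.18. Cholesterol synthesis and uptake had 3 rises and 2 falls among 15 genes. Ch25h, cholesterol 25-hydroxylase, was the larger fall, from 129.76, 103.01 and 124.91 to 51.32, 34.2 and 66.23 (-1.26 ± 0.27). Without 1 library the call ended for Axl (0.58 without E3), Cd36 (-0.62 to -1.03 without E1, E3 or IE1), Rac2 (-0.47 without IE3) and Itgb3 (-0.51 to -0.58 without E3, IE2 or IE3).

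In the BCL2 family, 3 of 14 rose and 3 fell. Bcl2 and Bcl2a1a, which protect from apoptosis, fell by 1.64 and 1.33, and Mcl1, which also protects, rose from 6478.72, 6808.44 and 6676.48 to 11882.82, 10464.94 and 10680.26 (0.72 ± 0.09). Pmaip1 (1.39) and Bcl2l11 (0.76), which promote it, rose, while Bad (-0.81), which also promotes it, fell. The call of Bad ended without E1, E3, IE1 or IE3 (-0.62 to -0.80). Of 12 metalloproteinase and TIMP genes, 4 rose and 3 fell, led by Mmp27 (2.26) and Mmp8 (1.61) upward and Mmp13 (-1.35) and Timp2 (-1.01) downward.

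**Figure D3:**
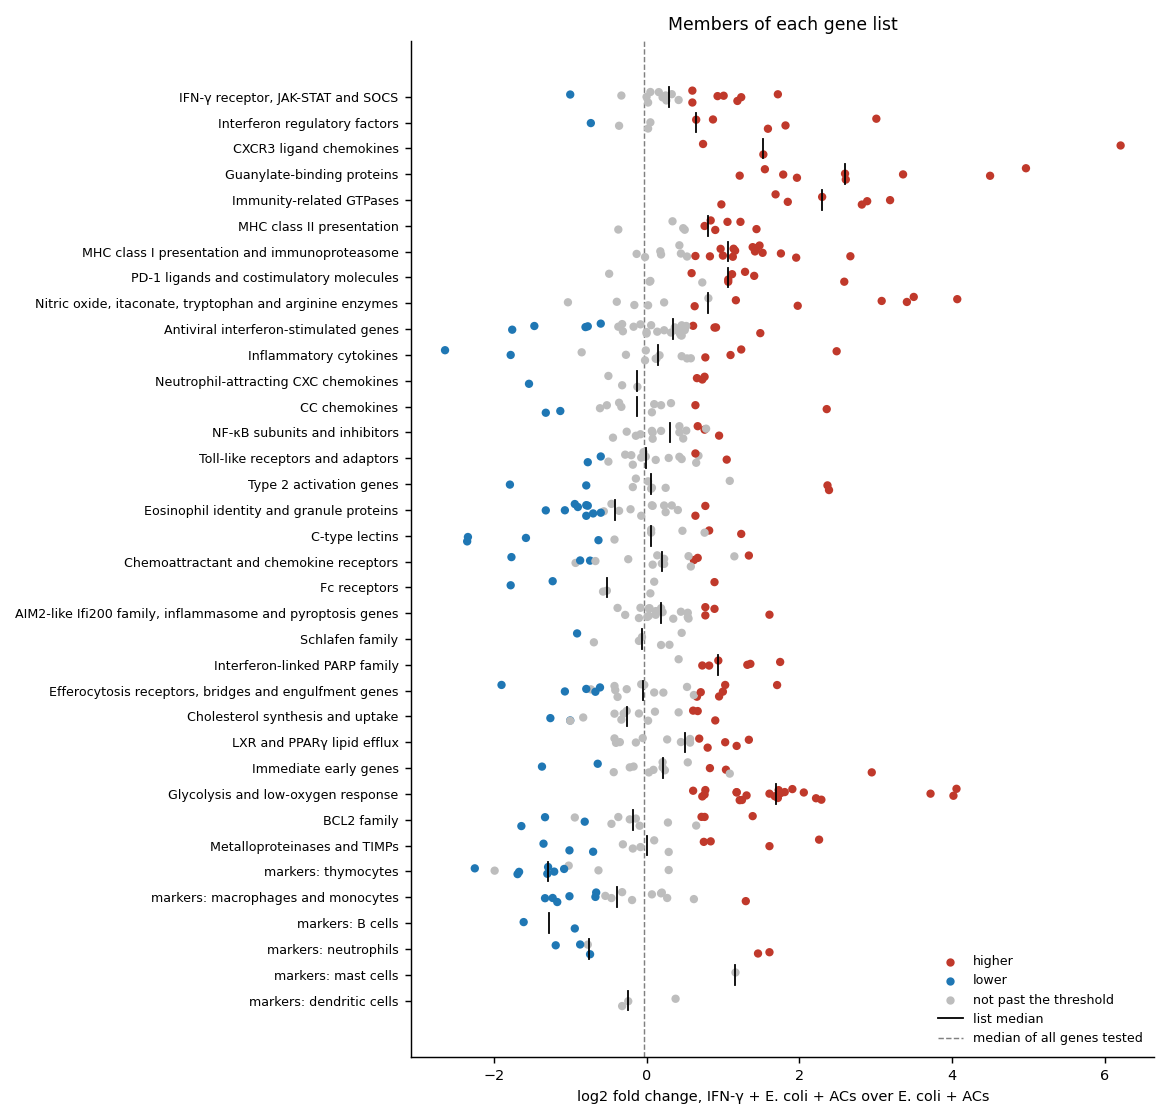
Log2 fold change of each tested member of the gene lists (IFN-γ + E. coli + ACs over E. coli + ACs), coloured by whether it passed the threshold higher (red), lower (blue) or not (grey). Black lines are list medians and the dashed line is the median of all genes tested (-0.03). The guanylate-binding proteins (median 2.60), immunity-related GTPases (2.30) and glycolysis genes (1.70) lie wholly to the right, and thymocyte markers (-1.29) mostly to the left.

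Other cell types moved with some of these falls. Summed thymocyte markers, which can come from the ACs, were 632.8 to 739.7 without and 219.5 to 397 with IFN-γ, and 7 of the 11 tested fell with none rising. Trbc2, a T cell receptor constant gene, fell by 1.67 and Trac by 1.29. B cell markers summed to 313.9 to 325.4 without and 161.4 to 172.2 with IFN-γ, and both tested, Ighm and Cd79a, fell. Neutrophil markers summed to 2472 to 2799 and 1663 to 2074, and of 6 tested 3 fell, while Mmp8 and Ly6g rose. Macrophage markers overlapped in sum, with 6 of 16 lower, among them Gata6 (-1.33) and Fcgr1 (-1.23), and Marco higher (1.30). The only mast cell marker tested, Cpa3, and the 3 dendritic cell markers did not pass. Of these lists, 1 of 21 thymocyte genes, 2 of 11 neutrophil genes, 3 of 10 mast cell genes and 1 of 10 dendritic cell genes were at 0 in all 6 libraries. The part of these cells, and of the lower depth of the IFN-γ libraries, in the falls was not tested. Leaving out 1 library ended the call of Cd79a (-1.13 to -1.47 without E2 or IE1) and Ly6g (1.27 to 1.58 without E1, E2, E3, IE1, IE2 or IE3). Most of the thymocyte falls were lost in this way too. Cd247 was not called without E1, E2, E3 or IE3 (-0.92 to -1.30). Thy1 was not without E1, E2, E3, IE1 or IE3 (-1.26 to -1.85), nor Tcf7 without E1, E2, E3, IE1 or IE2 (-0.98 to -1.12). Lef1 was not without E1, E2, E3 or IE1 (-0.69 to -1.30), nor Bcl11b without E1, E3 or IE1 (-1.11 to -2.05). Of the macrophage falls, Cd68 was lost without E1 (-0.57) and Msr1 without E1 or IE1 (-0.50 to -0.55).

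The 15 largest falls, in order, were Car4, Gm42418, Smpd3, Neb, Cald1, Nmb, Slamf9, Pdzd2, Crispld2, Ifitm6, Tcrg-C1, Dcn, Lipg, U90926 and Npy, with log2 fold changes from -3.84 to -2.65. Car4, a carbonic anhydrase of the cell surface (chromosome 11, 84957786 to 84966044, plus strand), had 697.35, 681.01 and 661.49 without and 47.04, 59.86 and 35.87 with IFN-γ (-3.84 ± 0.26, limma adjusted p = 3e-09). All 6 libraries were well above 3 reads. Npy, neuropeptide Y, fell from 375.88, 263.25 and 342.18 to 31.36, 70.85 and 57.95, and Nmb, neuromedin B, from 122.22, 133.26 and 131.95 to 9.98, 15.88 and 20.7. U90926 fell from a mean of 220 to 32.81, and Crispld2 from 70.29 to 8.907.

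Several of the rest reached the floor or depended on a library. Smpd3, a sphingomyelinase, had a log2 fold change of -3.29 that was -4.15 without IE2 and -2.69 without IE3. Cald1 (-3.15, at counts of 1.43, 4.89 and 12.42 with IFN-γ) moved to -2.53 and -3.76 without IE1 and IE3, and Neb (-3.28) to -3.97 without IE3. Slamf9 (-3.0), Tcrg-C1 (-2.81), Pdzd2 (-2.88) and Lipg (-2.74) were at -2.25 and -1.95 without IE1 and at -2.27 and -2.00 without IE2, in order, the lowest library of each. Dcn (-2.76) encodes decorin, which is made by fibroblasts, and Tcrg-C1 is a T cell receptor gene. Gm42418, a lincRNA that overlaps a ribosomal RNA repeat, had 186.74, 2487.06 and 99.34 with IFN-γ, and its log2 fold change of -3.53 was -4.92 without IE2, -2.61 without IE3 and not called by DESeq2 (-2.18).

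To ask whether E. coli alters the IFN-γ effect, the same difference was fitted for the IFN-γ + ACs and ACs libraries, and the interaction, the log2 fold change with E. coli minus that without, was tested. Of the 9936 genes, the interaction was positive for 323 (3.25%) and negative for 432 (4.35%). These counts were 163 and 239 without E1, 191 and 317 without A2, 179 and 260 without A3, and 215 and 271 without I2, and reached 448 and 583 without IE2. Of 16 macrophage and monocyte markers tested, 8 had a negative interaction and none a positive one, and their part in these differences was not tested. Without E. coli, IFN-γ raised 1146 of the same genes (11.5%) and lowered 980 (9.86%). Higher in both were 528, which is 528 of the 997 with and 528 of the 1146 without E. coli. Lower in both were 366 of 956 and of 980. A gene called on one side and not on the other is not shown to differ unless its interaction passed. Of the 997 genes higher with E. coli, 132 had a positive and 67 a negative interaction, and 798 had neither.

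The negative interactions included genes that were high with E. coli + ACs. E. coli + ACs against ACs raised 515 genes (5.18%) and lowered 494 (4.97%). Cxcl10 had a mean of 157.9 with ACs, 2365 with ACs and E. coli, 2848 with ACs and IFN-γ and 3983 with all, so its IFN-γ effect was 4.18 without and 0.74 with E. coli (interaction -3.44 ± 0.25, limma adjusted p = 9.9e-08). Nos2 had 76.59, 638.5, 5363 and 5435 in the same order (interaction -3.05 ± 0.25). The level with both stimuli was close to that with IFN-γ for Nos2, and above either for Cxcl10. Ifitm1, an antiviral membrane protein, had 217.2, 3921, 2380 and 5377 (-3.01 ± 0.20), Acod1 an interaction of -2.12 and Cxcl11 of -3.84. Isg15 (-1.33), Ifit3 (-1.44), Rsad2 (-1.16), Oasl1 (-1.30), Ifit2 (-1.0) and Ifit1 (-0.85) among the antiviral genes were negative as well.

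Il10 and Ch25h changed direction. IFN-γ raised Il10 from a mean of 31.93 to 86.81 without E. coli (1.46) and lowered it from 275.1 to 78.93 with E. coli (-1.78), an interaction of -3.25 ± 0.40. Ch25h went from 12.8 to 81.81 (2.56) without and from 119.2 to 50.58 (-1.26) with E. coli (-3.82 ± 0.38). In both, the level with E. coli + ACs was the highest of the 4 treatments. Il19 (-3.06) was at 2.213 and 3.267 without E. coli, at or under 3 reads. Gdf15, Syt7 and U90926 completed the 8 most negative, at -3.34, -3.17 and -3.06. Fpr1 (-2.14), Mmp13 (-1.98) and Fcgr1 (-1.30) fell with IFN-γ in the presence of E. coli, and had log2 fold changes of 0.37, 0.62 and 0.08 without it, none past the threshold. Ccl4 (-1.79) rose by 0.66 without E. coli, and Clec4a3 (-1.46) fell by 0.89. The call did not hold without 1 library for Il19 (-2.92 without E1 or E3).

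For 5 of 10 class II genes the IFN-γ effect was lower with E. coli than without, and for none was it higher. The interaction was -1.59 for H2-Eb1, -1.40 for H2-Aa, -1.09 for H2-Ab1, -1.79 for H2-DMa and -1.47 for H2-DMb1. H2-Ab1, for example, had means of 450.1 with ACs, 503.5 with ACs and E. coli, 2605 with ACs and IFN-γ and 1356 with both stimuli. Here the level with both stimuli was between those with each. Cd40 (-1.51), Tgm2 (-1.31), Arg1 (-0.89), Slc7a2 (-1.98) and Atf3 (-1.71) also had negative interactions. In class I presentation, 3 of 22 genes had a positive one, Tap2 (1.05), Nlrc5 (0.87) and Erap1 (0.74), and Calr, a chaperone of class I assembly, a negative one (-0.89). Erap1 was not called with the replicate block (0.74). The absence of 1 library ended the call of H2-DMa (-1.56 without I2), H2-DMb1 (-1.32 to -1.51 without A1, A2, A3, E1, E3 or I2), Calr (-0.75 to -0.78 without A3, E1 or I2) and Erap1 (0.64 to 0.80 without A1, A2, A3, E1, E2, E3, I1, I2, IE1 or IE3).

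Within the GTPase families the interaction went both ways, with 3 positive and 3 negative among 9 guanylate-binding proteins and 2 negative among 7 immunity-related GTPases. Gbp8 was positive at 2.46 ± 0.27, with means of 59.56 with ACs, 23.54 with ACs and E. coli, 339.5 with ACs and IFN-γ and 769.5 with both stimuli, and Gbp7 was positive at 0.87. Gbp4 (0.88) was positive too. Gbp5 (-2.06), Gbp3 (-1.13), Gbp6, Iigp1 (-1.29) and Gm4951 (-1.31) were negative. Gbp2, Igtp and Irf1 had -0.01, 0.12 and 0.51 and did not pass. With 1 library left out, the threshold was missed by Gbp4 (0.72 to 0.94 without A2, A3, E2, E3, I1, I2 or IE3).

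The 8 most positive interactions were Mapt, Egr1, Mmp8, 2610507I01Rik, Egr2, Lair1, Gm31520 and Fanca, from 3.41 to 2.71. Mmp8, a neutrophil collagenase, had a mean of 522.4 with ACs, 193.2 with ACs and E. coli, 207.6 with ACs and IFN-γ and 588.7 with both stimuli, so that IFN-γ lowered it alone (-1.33) and raised it with E. coli (1.61, interaction 2.94 ± 0.21, limma adjusted p = 9.9e-08). Fanca, a DNA repair gene, did the same at lower levels, with means of 152.7, 34.89, 55.03 and 83.66 (2.71 ± 0.30). For both, the levels with a single stimulus were the low ones. Egr1, an immediate early factor, had 541.4, 127.5, 46.92 and 92.02. IFN-γ lowered it by 3.58 without E. coli, and its difference with E. coli was -0.43 and not past the threshold (interaction 3.14 ± 0.36). Of the 15 immediate early genes 6 had a positive interaction, Junb (1.40), Fosl2 (1.09) and Ier2 (1.06) among them, and 2 a negative one. Loss of 1 library ended the call of Mapt (3.27 to 3.53 without A2, A3, E1, E2, E3 or IE1), 2610507I01Rik (2.63 to 2.65 without A1 or A3) and Egr2 (2.54 to 2.80 without A2, A3, E1 or E3).

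The remaining positive ones were less secure or smaller. Mapt had a mean of 204.7 with ACs and 8.75 with IFN-γ + ACs, and its interaction of 3.41 was 4.31 and 2.17 without I2 and I3. 2610507I01Rik (2.90, or 3.49 without I2) and Egr2 (2.86, or 2.01 without the same library) were spread too, and Lair1 (2.83) was 2.11 without E2. Siglece (1.40), Clec12a (1.55), Il5ra (0.96), Itga4 (0.97), Wars (1.39), Hk1 (0.85) and Pfkp (0.86) passed too. Of the 22 glycolysis and low-oxygen genes, Bnip3 (0.64) and Hk2 (0.82) were positive besides Hk1 and Pfkp, and Pfkfb3, which makes an activator of phosphofructokinase, was negative (-0.69). Calls lost when 1 library was left out were those of Siglece (1.30 without E1), Hk2 (0.67 to 0.83 without A2, E1, E3, I1, I2 or IE1), Pfkfb3 (-0.59 to -0.71 without A1, A3, E1, E3, I2 or IE1) and Bnip3 (0.54 to 0.62 without A1, A2, E1, E2, I2 or IE1).

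**Figure D4:**
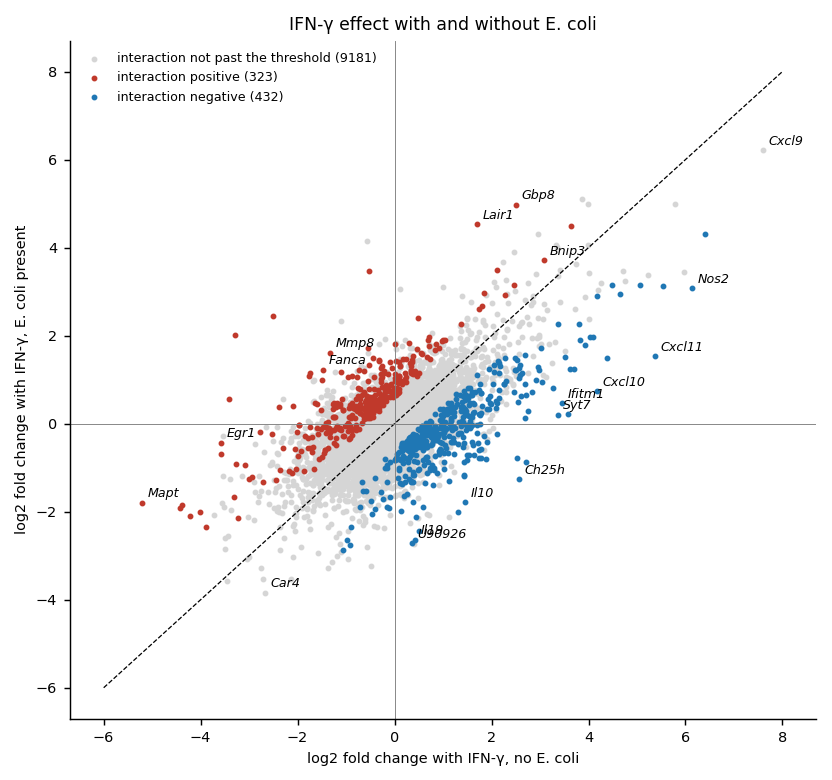
Log2 fold change with IFN-γ in the absence of E. coli (IFN-γ + ACs over ACs, x axis) and in its presence (IFN-γ + E. coli + ACs over E. coli + ACs, y axis) for the 9936 genes, one point a gene. The dashed line marks equal effects, and colours mark the 323 positive (red) and 432 negative (blue) interactions. Cxcl10, Nos2 and Ifitm1 lie far below the line, and Mmp8, Egr1 and Mapt above it.

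**Figure D5:**
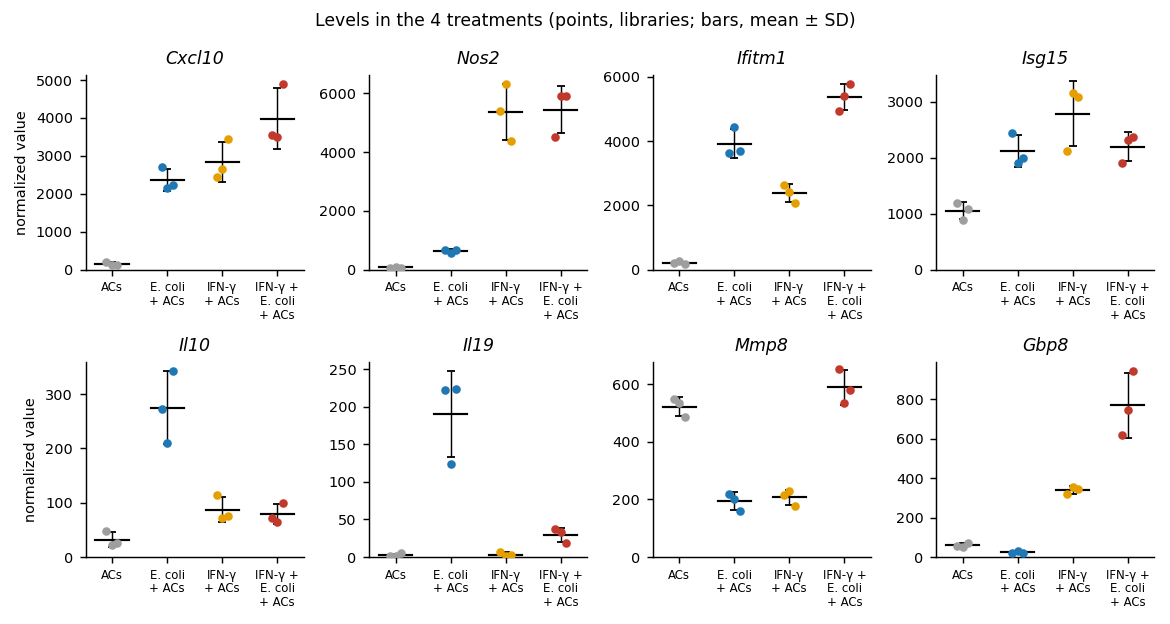
Normalized count (linear axis from 0) of 8 genes in the 4 treatments. Points are libraries, and black bars are the mean and SD of 3 libraries. Il10 and Il19 are highest with E. coli + ACs, Nos2 is about as high with IFN-γ + ACs as with both stimuli, Gbp8 is highest with both stimuli, and Mmp8 is high with ACs alone and with both stimuli.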

How the data were processed

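Eosinophil transcriptomes were measured by CEL-Seq2. The authors deposited 1 table of gene signal, read counts divided by size factors, for 18 libraries. Per the submitters' processing notes, the tools were FastQC 0.11.5, Trim Galore, cutadapt 1.10, TopHat2 2.1.0, Bowtie2 2.2.6, HTSeq 0.6.1 and DESeq2 1.26.0 with GRCm38. Which of the study's pipelines made this table was not given in the sources used here. Whole reads were recovered for 100.0% of values (tolerance 0.01 reads), with 2216917 to 5078760 reads a library over the 12 libraries fitted. Intervals of counting error were not used, and 3 reads served as the floor.

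Genes with a mean of at least 10 over the 6 libraries with E. coli were kept, and log2(value + 1) was fitted in 12 libraries with limma 3.58.1 in R 4.3.3, without the replicate number as a covariate. Fold changes are on the log2(value + 1) scale, which understates those of low genes. The threshold was a Benjamini-Hochberg adjusted p of 0.05 and a 1.5-fold change. The interaction had the same threshold. Alternatives were count tests of the recovered reads (edgeR 4.0.16, DESeq2 1.42.0), other pseudocounts, filters and scalings, and leaving out each library. On simulated data, with 1 setting of the spread for all genes and groups, 99% of 200 genes changed 4-fold were recovered among 9936, with 8 false calls. For the interaction, 89.5% were recovered, with 10 false calls. The simulation did not cover changes near 1.5-fold or the wider spread between the IFN-γ + E. coli + ACs libraries, so it does not measure the error of the calls reported.

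Symbols were matched for 54409 identifiers, and 37 had none. Python 3.11.15, numpy 2.4.6, pandas 2.3.3, scipy 1.17.1 and matplotlib 3.10.9 were used. The text names the 15 largest rises and 15 largest falls among genes past the threshold whose groups did not overlap and whose higher group had a mean of at least 50, the 8 largest interactions each way, genes the study names, and members of fixed lists. The genes compared and the lists were chosen with earlier results of these data known. Only 74.9% of higher and 77.8% of lower genes had a promoter window. A GAS match was in 6.96% of the windows of higher, 7.53% of lower and 6.72% of the remaining genes tested. An ISRE match was in 6.56%, 4.30% and 3.11%, in the same order. No test was made of these shares.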

Additional observations from a re-analysis of the deposited data

Results flagged for a closer look

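The IFN-γ effect differed with and without E. coli, by the interaction term of limma with Benjamini-Hochberg adjustment, for 323 genes upward and 432 genes downward of 9936, or 163 to 448 and 239 to 583 with 1 library left out. Values below are the log2 fold change with E. coli minus that without, and each passed an adjusted p of 0.05 and a size of 1.5-fold. The most positive were Mapt 3.41, Egr1 3.14, Mmp8 2.94, 2610507I01Rik 2.90, Egr2 2.86, Lair1 2.83, Gm31520 2.76 and Fanca 2.71. The most negative were Cxcl11 -3.84, Ch25h -3.82, Cxcl10 -3.44, Gdf15 -3.34, Il10 -3.25, Syt7 -3.17, and U90926 and Il19 with -3.06 each.

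Among genes with the largest changes by IFN-γ, the interaction was 2.46 for Gbp8, 0.88 for Gbp4, 0.64 for Bnip3 and 1.39 for Wars, and -2.07 for Clic5, -1.79 for Crispld2, -1.85 for Dcn and -1.67 for Npy. Dcn was not called without A2, A3, E1 or I2 (-1.66 to -1.82), nor Npy without A3, E1, E3, I1 or IE1 (-1.33 to -1.63). In signalling it was 0.92 for Cish and -0.81 for Socs2. Enzymes of arginine and itaconate metabolism had negative values, with Nos2 -3.05, Ass1 -2.46, Acod1 -2.12, Slc7a2 -1.98 and Arg1 -0.89. Class II genes did too, with H2-DMa -1.79, H2-Eb1 -1.59, H2-DMb1 -1.47, H2-Aa -1.40 and H2-Ab1 -1.09, and so did Cd40 with -1.51. Of class I presentation Tap2 (1.05), Nlrc5 (0.87) and Erap1 (0.74) were positive and Calr (-0.89) negative.

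Of the GTPases, Gbp7 had 0.87, Gbp3 -1.13, Gbp5 -2.06, Iigp1 -1.29 and Gm4951 -1.31. Antiviral genes with a difference were all negative, Ifitm1 -3.01, Ifit3 -1.44, Isg15 -1.33, Oasl1 -1.30, Ifit3b -1.28, Rsad2 -1.16, Ifit2 -1.0 and Ifit1 -0.85 among them. Cytokine and chemokine genes were Ccl4 -1.79, Il1rn -1.50 and Ccl2 -1.30. Surface receptors were Clec4n -2.39, Fpr1 -2.14, Clec4e -1.65, Clec4a3 -1.46, Fpr2 -1.35 and Fcgr1 -1.30, with Clec12a 1.55, Siglece 1.40, Itga4 0.97 and Il5ra 0.96 in the other direction. Mmp13 (-1.98), Mmp14 (-1.62), Tgm2 (-1.31) and Atf3 (-1.71) were negative, and Junb (1.40), Fosl2 (1.09), Ier2 (1.06), Pfkp (0.86), Hk1 (0.85) and Hk2 (0.82) positive, with Pfkfb3 at -0.69.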

How the results depend on the processing

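The genes called numbered 997 higher and 956 lower in the reported fit. With the replicate block there were 998 and 973 (interaction 316 and 425), with edgeR 1046 and 948, with DESeq2 1076 and 896, with a pseudocount of 5 990 and 962, without a filter 926 and 884, and with the 6 libraries alone 966 and 824. With a mean of at least 50 the lower genes numbered 621. Scaling to a common upper quartile gave 761 and 1356, and shared 761 of the 997 higher and 956 of the 956 lower genes. Leaving out 1 library gave 852 to 1103 higher and 658 to 1169 lower genes, and 163 to 448 positive and 239 to 583 negative interactions. With no fold threshold 1370 were higher and 1196 lower. Of 9345 single-gene results under an alternative, 9042 kept their side of the threshold, 244 lost the call and 59 gained it. No called gene changed sign, whereas genes not past the threshold did so in 130 cases, for example Ptgdr2 (0.58 reported, -0.07 without E. coli + ACs replicate 1). Of 1472 interaction values, 1395 kept their call and 77 lost it, among them Erap1 (0.74) with the replicate block. The cause was not tested. Libraries with the same number did not deviate together (correlations -0.019, -0.014 and -0.006), so the numbers were not taken as pairs, and the replicate block changed none of these counts by over 1.5 times. Depth limits genes near 3 reads in the shallower IFN-γ libraries.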
